A study of Mus musculus with 13 samples.

Results

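The T and NK cell genes are 34 named mouse genes that mark T lymphocytes and natural killer (NK) cells, taken by symbol. On the array, 30 of the 34 matched 1 feature each, among 19505 genes and 22206 features tested, which are all features other than controls. Cd27, Lck, Tcf7 and Foxp3 matched no feature in the annotation and were not analysed here.

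RNA from 4T1 tumours, a mouse mammary carcinoma line, was hybridised to Clariom S arrays. Tumours arose from cells injected into a mammary fat pad of BALB/c mice that were wild type (WT) or lacked Nlrx1 in the host (Nlrx1-/-). The injected line was the parental, untransduced 4T1, a line overexpressing NLRX1 (4T1OE), or its overexpression control (4T1OE-CTL). Each of the 6 groups of host and line had 2 arrays, 12 in all. Each array held pooled RNA. The sources used here do not give the tumours per pool, the age of the mice or the species of the NLRX1 construct. The spread between replicates is therefore a spread between 2 pools, not between single mice. The p-values rest on 1 spread per feature, shared over all groups. In comparisons averaged over hosts or lines, that spread also holds differences of the host effect between lines. Injected cells keep their own Nlrx1, so a host without the gene can carry tumour cells with it. Each modification was studied in 1 line, so a difference between lines cannot be told apart from a difference between those cell stocks. The label of the Nlrx1-/- parental replicate 1 array advises leaving it out on the basis of a principal component analysis. It is included in the array values below and left out of the tests, which used 11 arrays.

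T cells recognise antigen through a receptor whose signal is carried into the cell by the CD3 chains and zeta chain, with CD4 or CD8 as coreceptor. Costimulatory receptors, kinases and adaptors around the receptor set the strength of that signal, and transcription factors such as LEF1 and SATB1 maintain T cell identity. NK cells and cytotoxic T cells share activating receptors and killing molecules, and in 4T1 tumours both populations come from the host. All values below are log2 expression values as deposited. In each set of values the first number is replicate 1 and the second replicate 2. A signal from whole tumour RNA cannot separate fewer cells of a type from less RNA per cell.

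Values were read against the median of 5222 negative control features, which lay between 5.24 and 5.96 on the 12 arrays. Of the 30 genes, 6 exceeded that median on all 12 arrays (Cd247, Cd4, Cd2, Icos, Lat and Txk). Another 4 were below it on all 12 (Zap70, Tbx21, Fasl and Xcl1). Per array, 10 to 26 of the 30 genes exceeded it, lowest in WT parental replicate 1 and highest in Nlrx1-/- 4T1OE replicate 1. Negative control features are themselves spread around their median, so a gene near it has no reliable level. Nlrx1 read 9.31 to 10.67 on the 4 arrays of 4T1OE tumours and 5.99 to 7.13 on the other 8, which checks the label of the overexpressing line. The host genotype cannot be checked this way.

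The 3 replicate 1 arrays of Nlrx1-/- hosts were already known as lymphoid-rich in these data and are described before any comparison. Counts of lymphoid genes on them describe that choice and are no independent support for it. On them, 16 of the 30 genes were higher than on every one of the other 9 arrays, while 1.23% of all features had this pattern. The 16 were Cd3d, Cd3e, Cd247, Cd4, Cd2, Cd5, Cd6, Cd28, Icos, Cd40lg, Zap70, Lat, Txk, Sh2d1a, Lef1 and Satb1. Of these, Cd5, Cd40lg, Zap70 and Sh2d1a read 5.68, 5.13, 4.57 and 5.19 on Nlrx1-/- parental replicate 1. These values were below its negative control median of 5.96, the highest of all arrays. That array also had the smallest standard deviation of tested features, 2.53. The part of either in the rank of genes near background was not tested. Cd5, Cd40lg and Sh2d1a exceeded the negative control median on 2 arrays each, Cd6 on 3 and Zap70 on 0. Replicate 1 exceeded replicate 2 by more than 1 in all 3 lines for 15 genes in Nlrx1-/- hosts (0.73% of features) and for 0 genes in WT hosts (0.00901% of features). The median difference of the 30 genes between replicate 1 and replicate 2 was 1.28, 1.50 and 1.69 in Nlrx1-/- hosts with parental, 4T1OE and 4T1OE-CTL tumours. It was 0.15, 0.07 and -0.24 in WT hosts. Over all features the medians in Nlrx1-/- hosts were 0.02, -0.01 and -0.03 in the same order of lines. Of all features 17.9%, 2.53% and 7.89% exceeded 1 there. The 2 arrays of the Nlrx1-/- parental group correlated at 0.896, against 0.987 and 0.961 for the Nlrx1-/- 4T1OE and 4T1OE-CTL groups. These are descriptions of 2 pools per group without a test.

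Other lymphoid lists were high on the same 3 arrays, which had been singled out as lymphoid-rich. All 9 measured B cell markers were higher on them than on the other 9 arrays, and the log2 of their summed level was 10.2 to 12.6 against 7.93 to 8.73. Of 8 lymph node stroma and follicle genes, 6 were higher on all 3. Their summed level was 14.4 to 15.7 against 7.995 to 9.06. Glycam1, a mucin gene of this list, read 12.75 to 13.16 against 3.71 to 5.55. Cxcl13, the follicle chemokine, read 12.83 to 15.18 against 4.61 to 7.82. Madcam1 and Tnfsf11 of the same list were not higher on all 3. Madcam1 read 4.56 to 5.37 against 3.67 to 5.37, and Tnfsf11 4.49 to 5.46 against 4.09 to 5.84. They exceeded the negative control median on 0 arrays and on 1 array. Cd79a, a chain of the B cell receptor, read 8.01 to 11.23 against 3.46 to 3.95. In plasma cell and dendritic cell lists, 3 of 6 and 2 of 7 genes were higher on all 3 arrays, and in the macrophage, neutrophil, mast cell, muscle, endothelial, epithelial, fibroblast and adipocyte lists 0 were. The part that lymph node or other lymphoid tissue had in the T and NK cell values was not tested.

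**Figure D1:**
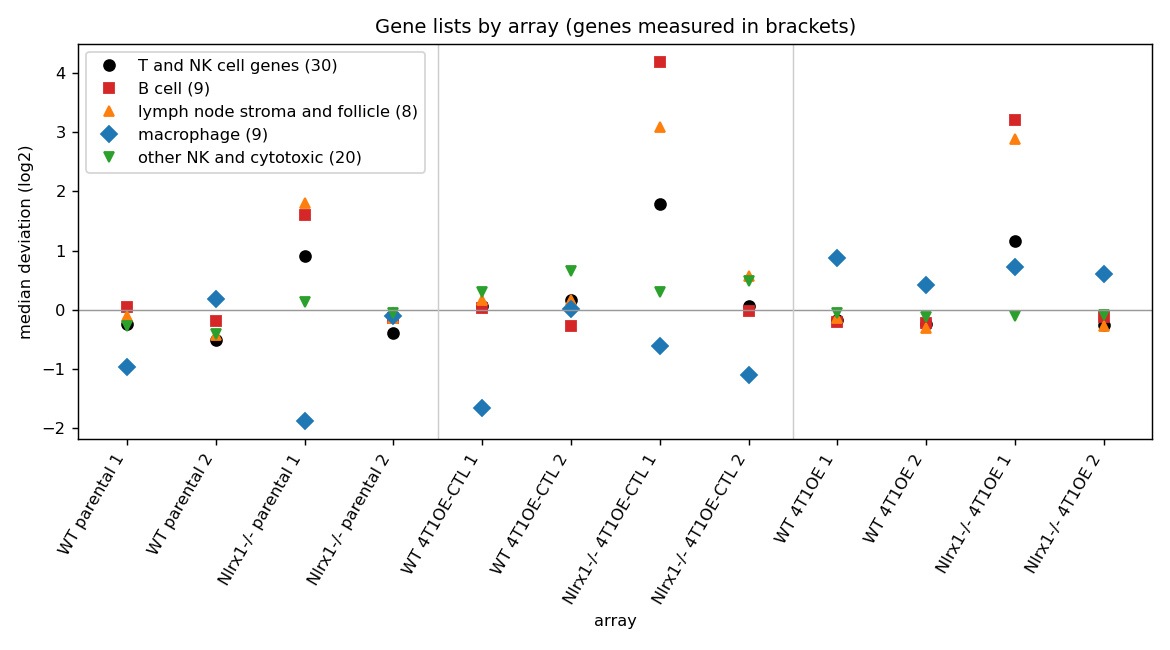
Median deviation of gene lists from each gene's median over the 12 arrays (log2, y axis) by array (x axis), with 1 point per list and array. The T and NK cell genes stand at 0.91, 1.16 and 1.79 on the Nlrx1-/- replicate 1 arrays with parental, 4T1OE and 4T1OE-CTL tumours and between -0.50 and 0.16 elsewhere.

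The CD3 complex had the highest replicate 1 excess in Nlrx1-/- hosts, with coreceptors: its 4 genes had a median of 3.04 for replicate 1 minus replicate 2 averaged over the 3 lines, and the 3 coreceptors 3.08. Cd3e, the epsilon chain of the receptor complex, read 5.30 and 5.14 in WT and 8.05 and 4.60 in Nlrx1-/- hosts with parental tumours, 5.35 and 5.31 and 8.90 and 4.88 with 4T1OE tumours, and 6.40 and 7.19 and 10.15 and 5.40 with 4T1OE-CTL tumours. The highest 3 arrays are the Nlrx1-/- replicate 1 arrays, and on the other 9 the WT 4T1OE-CTL arrays are highest. Cd3d, the delta chain, read 4.87 and 4.91 in WT and 8.03 and 5.28 in Nlrx1-/- hosts with parental tumours, 5.21 and 5.08 and 8.14 and 5.43 with 4T1OE tumours, and 6.25 and 7.02 and 9.21 and 6.08 with 4T1OE-CTL tumours. Cd3g, the gamma chain, read 4.80 and 4.52 in WT and 6.34 and 4.43 in Nlrx1-/- hosts with parental tumours, 4.95 and 4.53 and 7.93 and 4.44 with 4T1OE tumours, and 5.76 and 8.39 and 9.30 and 5.08 with 4T1OE-CTL tumours. Its WT 4T1OE-CTL replicate 2 value exceeds that of 2 of the 3 Nlrx1-/- replicate 1 arrays. Cd247, the zeta chain, read 6.66 and 6.09 in WT and 7.55 and 5.82 in Nlrx1-/- hosts with parental tumours, 5.99 and 6.03 and 7.69 and 6.45 with 4T1OE tumours, and 6.55 and 6.79 and 8.48 and 6.79 with 4T1OE-CTL tumours. It varied least of the 4 chains, over a range of 2.66, against 5.55 for Cd3e.

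Cd3d, Cd3g and Cd3e, all among the 5 genes with the largest replicate 1 excess in Nlrx1-/- hosts, lie next to each other on mouse chromosome 9. Cd3d and Cd3g start 1355 bases apart on opposite strands, and Cd3d and Cd3e 27825 bases apart. The 250 bases before each start in RefSeq on GRCm38.p6 are shown because these neighbours were high on the same arrays. They are chr9:44981536-44981785 (plus strand) for Cd3d, chr9:44980432-44980681 (minus strand) for Cd3g and chr9:45009612-45009861 (minus strand) for Cd3e. Capitals mark matches, on either strand, to 5 motifs of T cell factors. The letters searched were TGTGGT for RUNX, CTTTGA for TCF/LEF, AGGAAG for ETS, AGATAA for the GATA family and AGGTGT for T-box factors.

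Cd3d: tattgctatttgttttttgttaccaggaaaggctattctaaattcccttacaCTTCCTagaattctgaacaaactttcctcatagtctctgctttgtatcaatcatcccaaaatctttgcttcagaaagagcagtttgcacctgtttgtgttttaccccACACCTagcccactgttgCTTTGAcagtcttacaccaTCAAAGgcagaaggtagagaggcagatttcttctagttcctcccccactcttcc

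Cd3g: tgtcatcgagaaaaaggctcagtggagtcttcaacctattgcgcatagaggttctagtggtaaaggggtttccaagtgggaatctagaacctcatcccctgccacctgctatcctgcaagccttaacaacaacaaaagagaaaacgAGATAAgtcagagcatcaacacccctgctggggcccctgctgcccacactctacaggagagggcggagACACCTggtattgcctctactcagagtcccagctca

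Cd3e: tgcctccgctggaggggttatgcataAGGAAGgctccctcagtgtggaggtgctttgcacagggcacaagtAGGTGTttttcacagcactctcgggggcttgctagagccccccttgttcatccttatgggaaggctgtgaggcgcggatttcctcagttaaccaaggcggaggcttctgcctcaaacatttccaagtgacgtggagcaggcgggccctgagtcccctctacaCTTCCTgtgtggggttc

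All 3 windows hold a T-box match, which 11.8% of 32851 promoter windows of this length do. Cd3d and Cd3e hold an ETS match (29.5% of windows). Cd3d alone of the 3 holds TCF/LEF matches (13.8% of windows), and Cd3g alone a GATA match (10.0% of windows). Over the 19 genes of the list with a window, 14 held an ETS match, 8 a T-box match, 6 RUNX, 4 TCF/LEF and 2 GATA. Some of these genes have more than 1 window, which raises such counts. A match is a description of letters, not a site in use.

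Both CD8 genes followed the CD3 chains, and Cd4 shared with them only the high values on the Nlrx1-/- replicate 1 arrays. Cd8a, a chain of CD8, read 5.60 and 5.12 in WT and 8.09 and 5.49 in Nlrx1-/- hosts with parental tumours, 5.66 and 5.25 and 8.77 and 6.01 with 4T1OE tumours, and 7.47 and 8.27 and 10.04 and 6.14 with 4T1OE-CTL tumours. Cd8b1, the other CD8 chain, read 5.81 and 4.90 in WT and 7.41 and 4.95 in Nlrx1-/- hosts with parental tumours, 5.66 and 5.32 and 8.97 and 5.17 with 4T1OE tumours, and 6.82 and 7.67 and 10.75 and 5.87 with 4T1OE-CTL tumours. Both are highest on Nlrx1-/- 4T1OE-CTL replicate 1 and next on Nlrx1-/- 4T1OE replicate 1. WT 4T1OE-CTL replicate 2 follows for both, above Nlrx1-/- parental replicate 1. Cd4, the coreceptor of helper T cells that some myeloid cells also express, read 8.86 and 7.57 in WT and 10.96 and 7.86 in Nlrx1-/- hosts with parental tumours, 7.97 and 8.33 and 9.56 and 7.89 with 4T1OE tumours, and 8.56 and 7.91 and 10.12 and 8.05 with 4T1OE-CTL tumours. Its highest array is Nlrx1-/- parental replicate 1. The other 9 arrays overlap over all 3 lines between 7.57 and 8.86.

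Among adhesion and costimulatory genes, 6 of 7 had all 3 Nlrx1-/- replicate 1 arrays on top, and Thy1 was the exception. Icos, an inducible costimulator of activated and follicular helper T cells, read 6.12 and 5.56 in WT and 9.89 and 5.68 in Nlrx1-/- hosts with parental tumours, 6.68 and 6.31 and 9.34 and 6.79 with 4T1OE tumours, and 6.96 and 7.14 and 9.38 and 7.68 with 4T1OE-CTL tumours. All 3 Nlrx1-/- replicate 1 arrays exceed 9, and the remaining arrays stay under 8. Cd40lg, the CD40 ligand of activated helper T cells, read 4.52 and 3.73 in WT and 5.13 and 3.83 in Nlrx1-/- hosts with parental tumours, 4.22 and 4.12 and 5.78 and 4.57 with 4T1OE tumours, and 3.94 and 3.79 and 5.69 and 4.41 with 4T1OE-CTL tumours. It exceeded the negative control median on 2 arrays, so that most of these numbers are background. Thy1, a surface protein of T cells that fibroblasts also carry, read 8.51 and 9.18 in WT and 5.92 and 8.56 in Nlrx1-/- hosts with parental tumours, 8.03 and 7.996 and 8.58 and 7.89 with 4T1OE tumours, and 8.52 and 9.90 and 9.31 and 8.26 with 4T1OE-CTL tumours. The Nlrx1-/- parental replicate 1 array is lowest for Thy1 and highest for Cd4 and Icos. On that array 5 fibroblast genes had a median deviation of -1.06, against a range of -1.08 to 2.47 on the other 11. Macrophage and endothelial genes were low on it too, at -1.88 and -1.22. Its tested features also had the smallest standard deviation of all arrays, 2.53. The part of any of these in the Thy1 value was not tested. Cd2, Cd5, Cd6 and Cd28, receptors that tune adhesion and activation, had ranges over the arrays of 4.43, 2.21, 2.39 and 2.36, each with its maximum on Nlrx1-/- 4T1OE-CTL replicate 1. Cd5 exceeded the negative control median on 2 arrays and Cd6 on 3.

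Genes of receptor-proximal signalling had all 3 Nlrx1-/- replicate 1 arrays on top in 4 of 4 cases. Lat, the adaptor that links the receptor to downstream pathways, read 6.16 and 6.35 in WT and 9.90 and 5.92 in Nlrx1-/- hosts with parental tumours, 5.98 and 6.57 and 8.38 and 6.54 with 4T1OE tumours, and 6.83 and 7.23 and 8.72 and 7.55 with 4T1OE-CTL tumours. Its maximum is on Nlrx1-/- parental replicate 1. Txk, a Tec family kinase, read 6.18 and 5.50 in WT and 7.97 and 5.88 in Nlrx1-/- hosts with parental tumours, 6.71 and 6.83 and 7.03 and 6.76 with 4T1OE tumours, and 6.84 and 6.95 and 8.61 and 6.72 with 4T1OE-CTL tumours. Outside the Nlrx1-/- replicate 1 arrays, the parental arrays stay at 6.18 or lower and those of both transduced lines at 6.71 or higher. Zap70, the kinase that binds the phosphorylated zeta chain, read 3.46 and 3.44 in WT and 4.57 and 3.64 in Nlrx1-/- hosts with parental tumours, 3.32 and 3.19 and 4.88 and 3.79 with 4T1OE tumours, and 3.63 and 3.87 and 5.33 and 4.22 with 4T1OE-CTL tumours. It was below the negative control median on all 12 arrays, although its Nlrx1-/- replicate 1 values are the highest. Sh2d1a, the SLAM adaptor SAP, ranged over 2.39 and exceeded the negative control median on 2 arrays.

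Both T lineage transcription factors were highest on Nlrx1-/- 4T1OE-CTL replicate 1. Satb1, a chromatin organiser of T cell development also expressed in other cells, read 5.40 and 5.91 in WT and 7.15 and 6.76 in Nlrx1-/- hosts with parental tumours, 6.09 and 5.98 and 8.66 and 6.55 with 4T1OE tumours, and 5.83 and 6.42 and 10.54 and 7.07 with 4T1OE-CTL tumours. Every one of the 6 Nlrx1-/- values exceeds every one of the 6 WT values. Lef1, the partner of beta-catenin in early T cells, ranged over 3.20, with its replicate 1 excess in Nlrx1-/- hosts at 2.07 averaged over the 3 lines.

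The IL-2 receptor genes had a lower replicate 1 excess, 0.88 at the median. Il2rb, the beta chain shared by the IL-2 and IL-15 receptors of T and NK cells, read 5.88 and 4.65 in WT and 6.45 and 5.58 in Nlrx1-/- hosts with parental tumours, 5.79 and 6.88 and 7.90 and 6.51 with 4T1OE tumours, and 6.24 and 8.40 and 8.47 and 6.73 with 4T1OE-CTL tumours. WT 4T1OE-CTL replicate 2 and Nlrx1-/- 4T1OE-CTL replicate 1 are the highest arrays, close together. Il2ra, the alpha chain found on regulatory and activated T cells, ranged over 1.01.

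NK receptors and effector genes had the lowest median excess on the Nlrx1-/- replicate 1 arrays, 0.36, and 0 of 8 had all 3 of them on top. Many of these genes were near background. Tbx21, Fasl and Xcl1 exceeded the negative control median on 0 arrays, Ncr1 on 2 and Eomes on 4. Klrd1 had an excess of 1.74 and Nkg7 of 1.04, but Klrk1 of 0.14. Klrk1, which encodes the activating receptor NKG2D, read 5.48 and 5.78 in WT and 5.25 and 5.10 in Nlrx1-/- hosts with parental tumours, 6.62 and 6.33 and 6.70 and 6.55 with 4T1OE tumours, and 7.16 and 7.46 and 6.96 and 6.85 with 4T1OE-CTL tumours. All parental values are below all 4T1OE values, and all 4T1OE values below all 4T1OE-CTL values, in both hosts. Of the 30 genes only Klrk1 was ordered in this way on the 12 arrays, against 0.0811% of all features, and it was singled out after its values were seen. The replicates of a group differed by 0.30 at most. On 3 of the 4 parental arrays Klrk1 was below the negative control median. Klrd1, which encodes the CD94 chain, read 5.96 and 5.84 in WT and 7.50 and 5.99 in Nlrx1-/- hosts with parental tumours, 6.27 and 5.90 and 6.83 and 5.19 with 4T1OE tumours, and 7.07 and 8.81 and 8.47 and 6.40 with 4T1OE-CTL tumours. Nkg7, a protein of cytotoxic granules, read 4.52 and 4.38 in WT and 5.22 and 4.63 in Nlrx1-/- hosts with parental tumours, 4.75 and 5.40 and 5.92 and 4.93 with 4T1OE tumours, and 6.29 and 7.46 and 6.87 and 5.34 with 4T1OE-CTL tumours. For Klrd1 and Nkg7 the highest array is WT 4T1OE-CTL replicate 2, and Nkg7 is below the negative control median on all 4 parental arrays.

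The remaining effector genes were close to background. Fasl, the ligand of the death receptor FAS, read 4.40 and 4.70 in WT and 5.15 and 3.87 in Nlrx1-/- hosts with parental tumours, 3.82 and 3.89 and 3.76 and 3.85 with 4T1OE tumours, and 5.17 and 4.22 and 5.42 and 5.11 with 4T1OE-CTL tumours. Ncr1, which encodes the NK receptor NKp46, read 3.13 and 4.98 in WT and 5.65 and 5.25 in Nlrx1-/- hosts with parental tumours, 4.72 and 4.83 and 5.34 and 5.03 with 4T1OE tumours, and 4.04 and 4.28 and 5.27 and 5.67 with 4T1OE-CTL tumours. Xcl1, a chemokine of NK and CD8 T cells, read 5.09 and 4.64 in WT and 5.51 and 4.84 in Nlrx1-/- hosts with parental tumours, 4.85 and 4.80 and 4.78 and 4.93 with 4T1OE tumours, and 4.73 and 4.71 and 5.28 and 5.13 with 4T1OE-CTL tumours. Fasl and Xcl1 lie below the negative control median on every array and Ncr1 on 10 of 12. Eomes exceeded it on 4 arrays and Tbx21 on 0, the T-box factors of NK and effector T cells.

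**Figure D2:**
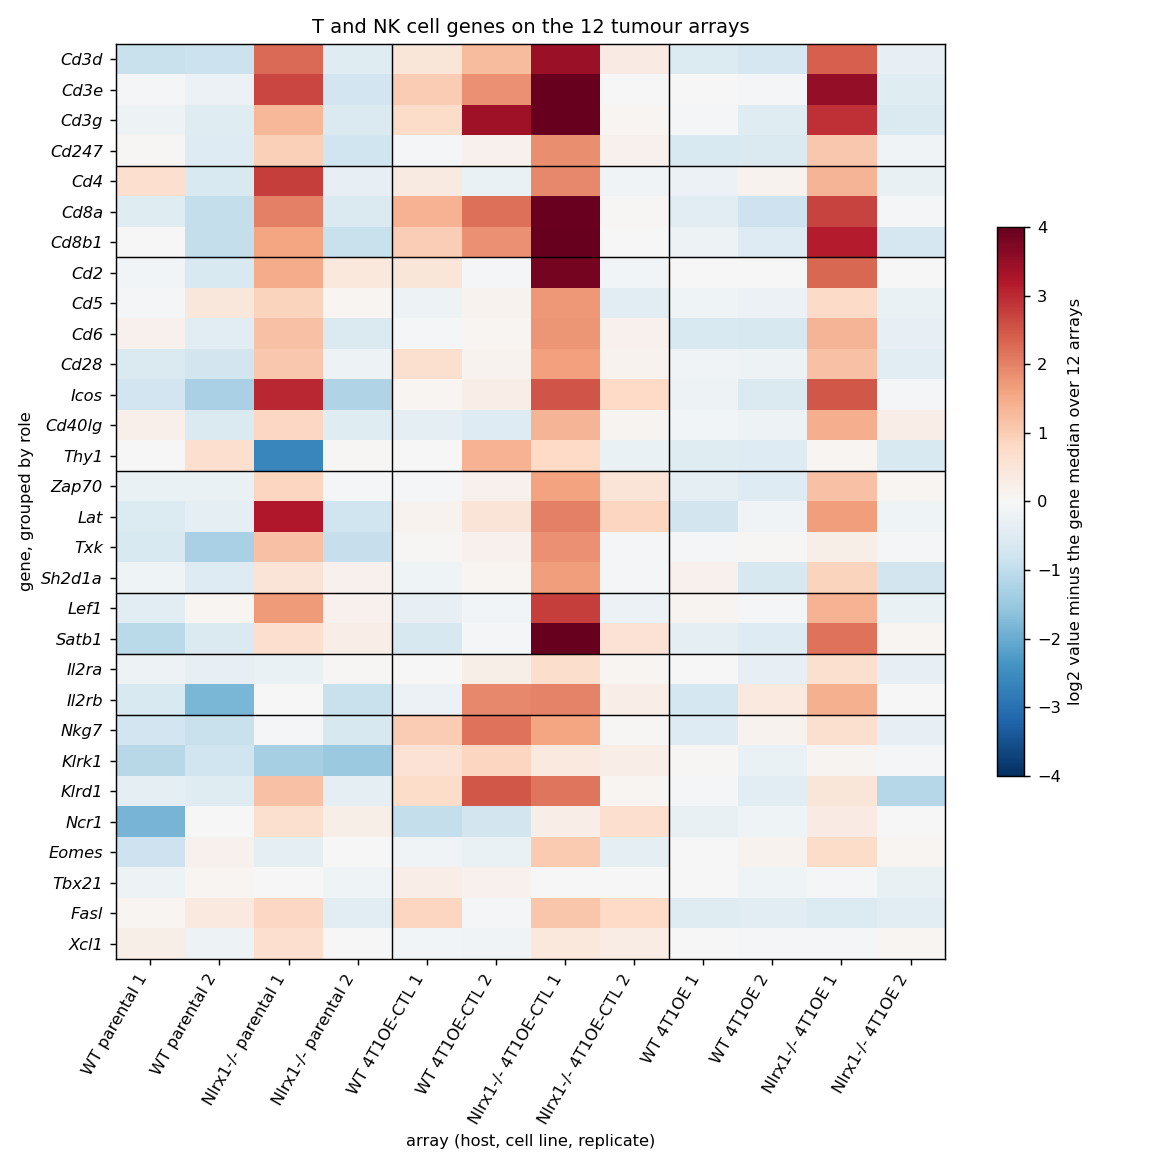
Log2 value of each of the 30 genes minus its median over the 12 arrays (colour, limited to the range from -4 to 4), with genes in rows by role and arrays in columns by line and host. The 3 Nlrx1-/- replicate 1 columns are red over the CD3, coreceptor, costimulation, signalling and transcription factor genes except Thy1, and Klrk1 is blue on the 4 parental columns.

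**Figure D3:**
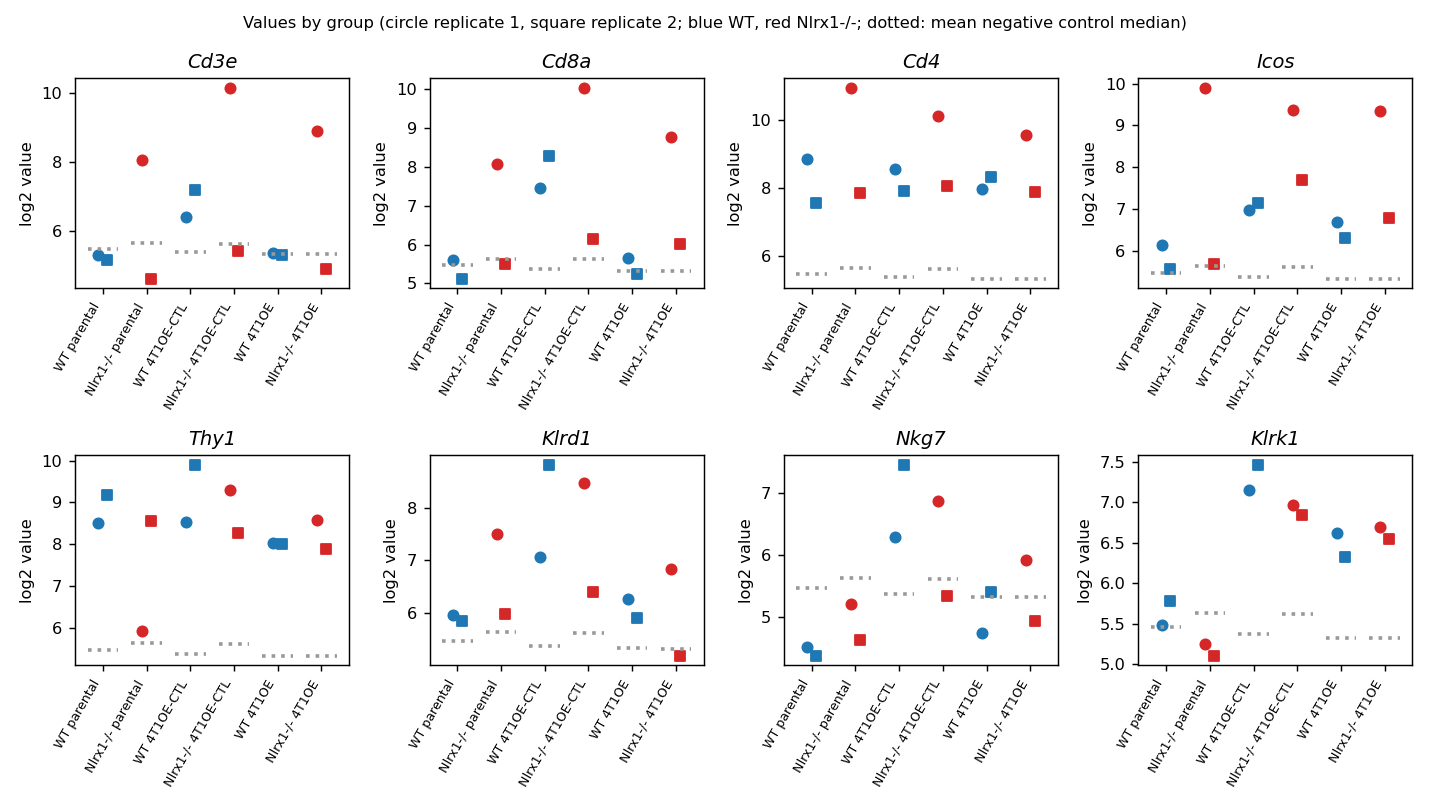
Log2 values of 8 genes by group of host and line (x axis), with 1 point per array (circles replicate 1, squares replicate 2, blue WT, red Nlrx1-/-) and a dotted line at the mean negative control median of the group. Cd3e, Cd8a, Cd4 and Icos have high Nlrx1-/- replicate 1 points in each line, and Klrk1 separates the 3 lines with replicates 0.30 apart at most.

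The 250 bases before the Klrk1 start, chr6:129623865-129624114 (minus strand, GRCm38.p6, RefSeq), are shown because this gene had the smallest p of the list in both comparisons with the parental line. Capitals mark a RUNX match (TGTGGT), which 14.0% of windows hold.

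Klrk1: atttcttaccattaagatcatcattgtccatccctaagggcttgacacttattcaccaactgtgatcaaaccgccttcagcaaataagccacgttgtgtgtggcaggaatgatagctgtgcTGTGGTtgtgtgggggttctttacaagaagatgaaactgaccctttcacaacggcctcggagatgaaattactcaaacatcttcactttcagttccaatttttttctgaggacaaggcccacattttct

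The transduced control line was first compared with the untransduced parental line, a pair in which neither line was made to overexpress NLRX1. Klrk1 and Nkg7 were higher in 4T1OE-CTL tumours, 2 of 30 genes, against 0.968% of all features called higher and 2.59% called in either direction. Calls are limma tests with an adjusted p under 0.05 over all 22206 features. Klrk1 averaged 7.11 ± 0.27 (SD, n = 4) in 4T1OE-CTL and 5.46 ± 0.34 (SD, n = 3) in parental tumours, a difference of at least 1.53 (limma adjusted p = 0.00198). The bound sets each parental array at no less than its negative control median and was added after the values were seen, since 1 of the 3 parental arrays tested was above that median. The fitted difference is 1.69 (SE 0.22), against a parental mean close to the mean negative control median of 5.41. Klrk1 was called in 20 of 20 alternative settings, with fitted differences from 1.54 to 1.81. Nkg7 averaged 6.49 ± 0.90 (SD, n = 4) in 4T1OE-CTL tumours and was below the negative control median on the 3 parental arrays, so its difference is at least 1.07 (limma adjusted p = 0.0342). This call was lost when any of 8 single arrays was left out, with adjusted p between 0.0541 and 0.148. The 8 are both WT parental arrays, Nlrx1-/- parental replicate 2, WT 4T1OE replicate 2, Nlrx1-/- 4T1OE replicate 2, both WT 4T1OE-CTL arrays and Nlrx1-/- 4T1OE-CTL replicate 1.

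Txk, Il2rb and Klrd1 did not pass. Txk differed by 1.37 (limma adjusted p = 0.0838), Il2rb by 2.00 (adjusted p = 0.103) and Klrd1 by 1.79 (adjusted p = 0.112). At an unadjusted p under 0.05, 13 genes passed, against 15.9% of features. All 30 genes had a positive difference and the median was 0.89, against 0.02 for all features, of which 52.0% were positive. The median was also 0.89 with genes below background set at their bound. In all such medians a gene with both sides below background, or without a positive bound, counts as 0. For 13 genes every 4T1OE-CTL array was above every parental array, against 4.88% of features. They were Cd3d, Cd3e, Cd3g, Cd8a, Cd8b1, Cd28, Icos, Lat, Txk, Il2rb, Klrd1, Klrk1 and Nkg7. The medians and this separation leave out the Nlrx1-/- replicate 1 array of the parental line. They keep those of the transduced lines, which were high for most of these genes. When all 12 arrays were fitted, 27 of 30 differences were positive and the median was 0.68.

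Without the Nlrx1-/- replicate 1 arrays of the transduced lines, 27 of 30 differences were positive and the median was 0.46. With these 9 arrays 3 genes passed, against 1.89% of features called either way. Klrk1 differed by 1.70 (limma adjusted p = 0.00880) and Icos by 1.47 (adjusted p = 0.0239). Cd3d averaged 6.45 ± 0.50 (SD, n = 3) in 4T1OE-CTL tumours and was below background in parental tumours, a difference of at least 1.04 (adjusted p = 0.0373). Nkg7 missed the threshold (adjusted p = 0.0546). The same 13 genes had no overlap between the lines, against 7.39% of features. Leaving out arrays cannot undo a separation already present, so this adds no support for it.

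**Figure D4:**
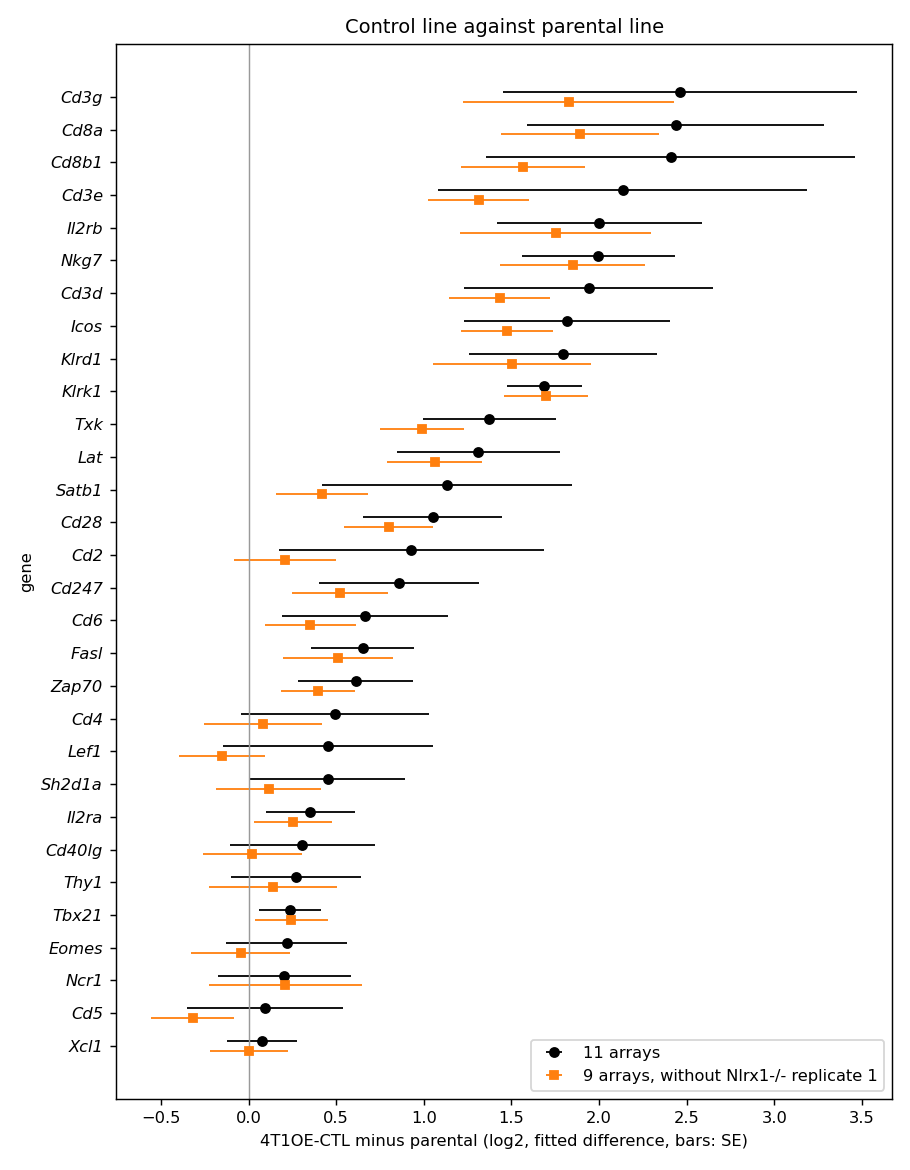
Fitted log2 difference of 4T1OE-CTL minus parental tumours for the 30 genes (x axis, bars SE), with all 11 arrays (black circles) and with the 9 arrays that leave out Nlrx1-/- replicate 1 (orange squares). Klrk1 stays at 1.69 and 1.70 with short bars, and the CD3 and CD8 genes have larger bars with all 11 arrays. Values of genes below background are fitted values, not sizes.

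Related genes outside the list moved in the same comparison. Of 20 other NK and cytotoxic genes 19 had a positive difference and 3 were called higher. These were Gzma by 3.01 (limma adjusted p = 0.00114), Gzmb by 4.31 (adjusted p = 0.00198) and Ifng by at least 0.81 (adjusted p = 0.0158). Gzma and Gzmb encode granzymes, proteases of cytotoxic granules. Of 23 other receptor signalling genes 18 had a positive difference and 1 was called higher. It was Ptpn22, a phosphatase that restrains the receptor signal, by 1.82 (limma adjusted p = 0.0230). Of 15 lineage and homing genes 10 had a positive difference and 1 was called higher. It was Il7r, the survival receptor of T cells, by 2.24 (limma adjusted p = 0.0248). Of 9 checkpoint receptors 0 passed, and all 9 differences were positive. Without the Nlrx1-/- replicate 1 arrays all 5 were still called, and Ctsw, a protease of cytotoxic cells, was called too, at 1.14 (adjusted p = 0.0342).

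Markers of other cells also differed between these lines. All 6 epithelial genes had a negative difference, and 4 were called lower in 4T1OE-CTL tumours. The summed level of the list was 14.3 to 16.0 against 16.8 to 17.4 in parental tumours. Of 5 fibroblast genes 4 had a negative difference and 2 were called lower. All 6 endothelial genes had a negative difference and 1 was called lower. Skeletal muscle genes had 0 calls, but all 8 differences were positive, with a median of 2.74, or 2.18 with genes below background at their bound. For 7 of the 8, every 4T1OE-CTL array was above every parental array, and their summed level was 9.36 to 13.9 against 8.78 to 8.90. B cell and lymph node genes had 0 calls, with summed levels of 8.11 to 12.6 and 8.32 to 15.7 in 4T1OE-CTL tumours against 8.20 to 8.56 and 8.05 to 8.26 in parental tumours. The part of any of these lists in the result was not tested.

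The overexpressing line against the parental line had 1 call in this list. Klrk1 was higher in 4T1OE tumours, at 6.55 ± 0.16 (SD, n = 4), a difference of at least 0.97 with the same bound (fitted 1.13, SE 0.22, limma adjusted p = 0.0274), against 0.887% of all features called higher and 1.33% in either direction. The call was lost without WT parental replicate 1 (adjusted p = 0.0792), Nlrx1-/- parental replicate 2 (0.126), WT 4T1OE replicate 1 (0.0873), Nlrx1-/- 4T1OE replicate 1 (0.0918) or Nlrx1-/- 4T1OE replicate 2 (0.0849), with fitted differences of 0.98 to 1.15. Without the Nlrx1-/- replicate 1 arrays it was 1.04 (adjusted p = 0.109), with 0.441% of features called and 0 of the 30 genes. Txk at 0.93 (adjusted p = 0.298), Il2rb at 1.31 (adjusted p = 0.345) and Icos at 1.31 (adjusted p = 0.348) did not pass. Nkg7 did not pass either (adjusted p = 0.477), and parental tumours were below background. At an unadjusted p under 0.05, 4 genes passed, against 13.8% of features. For Icos, Txk, Klrk1 and Nkg7 every 4T1OE array was above every parental array, against 9.96% of features. The largest differences among related genes were those of Itgal at 1.97 (adjusted p = 0.0834), Gzmb at 1.76 (adjusted p = 0.163) and Ptprc at 1.54 (adjusted p = 0.440), and 0 were called. All 6 epithelial and all 5 fibroblast genes had a negative difference, and 3 and 4 of them were called lower in 4T1OE tumours. The part of these lists in the result was not tested. Positive differences numbered 24 of 30, with a median of 0.43, or 0.23 with genes below background at their bound. The median was 0.12 with 18 of 30 positive without the Nlrx1-/- replicate 1 arrays, and 0.20 with 20 of 30 positive when all 12 arrays were fitted. This comparison and the one before it share the parental arrays. Both leave out the Nlrx1-/- replicate 1 array of the parental line and keep those of the transduced lines.

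The overexpressing line against its control, the contrast on NLRX1 itself, had 1 call among the 30 genes. Fasl was lower in 4T1OE tumours (limma adjusted p = 0.0365), against 1.04% of all features called lower and 4.73% in either direction, but both sides lie below the negative control median and no size can be given. The call was lost without any of 7 single arrays, at adjusted p from 0.0771 to 0.120, namely all 4 of 4T1OE tumours, WT 4T1OE-CTL replicate 1 and both Nlrx1-/- 4T1OE-CTL arrays. Klrd1 at -1.64 (adjusted p = 0.0772), Nkg7 at -1.24 (adjusted p = 0.0954), Klrk1 at -0.56 (adjusted p = 0.119) and Thy1 at -0.87 (adjusted p = 0.147) did not pass. Differences were negative for 27 of 30 genes, with a median of -0.54, or -0.52 with genes below background at their bound, against -0.05 for all features. At an unadjusted p under 0.05, 5 genes passed, against 24.2% of features. For 3 genes (Fasl, Klrk1 and Tbx21) every 4T1OE array was below every 4T1OE-CTL array, against 7.13% of features.

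Without the Nlrx1-/- replicate 1 arrays the median difference was -0.56 and 0 genes passed, with 0.27% of features called. On the remaining arrays 16 of 30 genes had every 4T1OE array below every 4T1OE-CTL array, against 11.8% of features. They included all 4 CD3 chain genes, both CD8 chains, Cd28, Icos and Lat. The 4T1OE array left out was high for these genes, for example Cd3e at 8.90 and Icos at 9.34. Leaving it out favours the separation, so the share of all features is not a like measure and the count adds no support. Fasl, Tbx21 and Cd6, also among the 16, were below the negative control median on both sides. Fewer arrays also make such a separation easier to reach. Of the related genes, Gzmb fell by 2.55 (limma adjusted p = 0.0225), Gzma fell by 1.51 (adjusted p = 0.0233) and Il7r fell by 1.63 (adjusted p = 0.0485). Without the Nlrx1-/- replicate 1 arrays Gzma was still called, at -1.81 (adjusted p = 0.0267), and Gzmb (adjusted p = 0.109) and Il7r (adjusted p = 0.0631) were not. All 9 macrophage and all 6 endothelial genes had a positive difference, and 5 and 3 of them were called higher in 4T1OE tumours. The summed macrophage level was 16.0 to 16.4 in 4T1OE against 13.6 to 15.1 in 4T1OE-CTL tumours, and its part in the result was not tested.

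Host genotype gave 0 calls, among the 30 genes and among all features (0.0%). At an unadjusted p under 0.05, 5 of 30 genes and 955 features (4.3%) passed. These 5 were Satb1, Zap70, Ncr1, Icos and Cd40lg, each with limma adjusted p = 0.9999. Satb1 averaged 7.92 ± 1.68 (SD, n = 5) in Nlrx1-/- and 5.94 ± 0.34 (SD, n = 6) in WT hosts, a difference of 1.87. Icos differed by 1.10. Zap70 is below background in both hosts, and Ncr1 and Cd40lg have no size above it. Satb1 and Ncr1 had every Nlrx1-/- array above every WT array, against 0.104% of features. The median difference of the list was 0.54, or 0.38 with genes below background at their bound, with 25 of 30 positive. Without the Nlrx1-/- replicate 1 arrays it was -0.02, with 14 of 30 positive. The largest differences among related genes were -1.53 for Itga2, 1.19 for Ikzf1 and 1.11 for Ptprc, each with adjusted p = 0.9999. B cell genes had a median fitted host difference of 1.44, but of 0.43 with genes below background at their bound. Lymph node stroma and follicle genes had 1.21, or 0.99 at their bound. Both lists had 0 calls, and their part in the result was not tested.

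Within single lines, host genotype again gave 0 calls. In 4T1OE-CTL tumours the median host difference was 0.80, or 0.24 with genes below background at their bound, and -0.18 without the Nlrx1-/- replicate 1 array. Satb1 at 2.68 (limma adjusted p = 0.450) and Icos at 1.48 (adjusted p = 0.574) were among the smallest p-values, and 4 of 30 genes had an unadjusted p under 0.05, against 9.55% of features. In 4T1OE tumours the median was 0.56, or 0.35 with genes at their bound, and -0.00 without that array, and 1 gene had an unadjusted p under 0.05, against 0.874% of features. Icos differed there by 1.57, Lat by 1.18 and Cd247 by 1.06, each with adjusted p = 1.0.

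NLRX1 overexpression was also compared within each host. The median difference of 4T1OE minus 4T1OE-CTL was -0.55 in WT hosts, or -0.25 with genes below background at their bound, and there 0.0135% of features and 0 of 30 genes were called. Nkg7 at -1.80 (limma adjusted p = 0.442), Klrk1 at -0.84 (adjusted p = 0.451), Klrd1 at -1.86 (adjusted p = 0.584) and Thy1 at -1.20 (adjusted p = 0.593) did not pass, and 5 genes had an unadjusted p under 0.05, against 8.07% of features. In Nlrx1-/- hosts the median was -0.56, or -0.39 without the replicate 1 arrays, with 1.19% of features and 0 of 30 genes called. Klrd1 at -1.43 (adjusted p = 0.308), Txk at -0.77 (adjusted p = 0.413) and Satb1 at -1.20 (adjusted p = 0.498) did not pass, and 1 gene had an unadjusted p under 0.05, against 20.8% of features. The interaction, which tests the difference between these effects, had a median of 0.07 with 18 of 30 positive, and 0 calls. With the standard deviation of each array as a covariate the median turned to -0.38, with 4 of 30 positive. At an unadjusted p under 0.05, 0 of 30 genes and 3.27% of features passed. Klrk1, with the smallest p of the list, had an interaction of 0.55 (adjusted p = 0.999).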

How the data were processed

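Expression was measured in 12 tumour arrays of 6 groups, and a manufacturer's control array was not used. The authors deposited log2 values, 1 per transcript cluster and array, made with the Transcriptome Analysis Console per the submitters' processing notes (version, background correction and normalization not given in the sources used here). Values were used as deposited. Of 28846 features, 6640 control features were left out, and 22206 were tested; 19572 carried 1 gene symbol in the platform annotation. Fits used limma 3.58.1 in R 4.3.3 (lmFit, eBayes, two-sided) over all features with Benjamini-Hochberg adjustment, an additive model of host and line for averaged comparisons and 1 mean per group for the others, on 11 arrays. The number of arrays limits the precision, and 5222 negative control features served as the measure of background. Where all arrays of a side lay below their negative control median, a difference is given as at least the higher side's mean minus the mean of that median, and where both sides did, no size is given. In list medians with genes at their bound, genes with no size or no positive bound were entered as 0. The fits were tested on simulated data.

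Genes named per comparison were those with adjusted p under 0.05, and where fewer than 5 passed, the 5 with the smallest p. Genes given array by array were the highest of each role, the 5 with the largest ranges, those named in a comparison, and Cd3d, added after its values were seen. The genes, lists and rules were chosen with earlier results of these data known. Alternatives were all 12 arrays, quantile normalization, array standard deviation as covariate, no dim features, an intensity trend, array weights, the replicate block, only the groups compared, no Nlrx1-/- replicate 1 arrays, and each array left out. Replicate numbers pair nothing by the labels: differences between replicates correlated between -0.31 and 0.61 over 15 pairs of groups, and 4 pairs exceeded 0.1. Of 66 pairs of arrays 0 were identical.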

Additional observations from a re-analysis of the deposited data

Results flagged for a closer look

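Dixon's criterion set the highest array apart from the rest in 21 of 150 tests over the 30 genes. Each test took the 4 arrays of a line or the 6 of a host. For a single test chance gives about 1 in 20. The tests share arrays and the genes vary together, so the count cannot be compared with that rate. Of the 21 flags, 20 fell on Nlrx1-/- replicate 1 arrays, described above as high for most of these genes. In parental tumours they were Cd3d (8.03), Cd8a (8.09), Icos (9.89), Lat (9.90) and Klrd1 (7.50). In 4T1OE tumours they were Cd3d (8.14), Cd3e (8.90), Cd3g (7.93), Cd8b1 (8.97), Cd2 (8.69), Cd5 (5.57), Cd6 (6.17) and Icos (9.34). In 4T1OE-CTL tumours they were Cd247 (8.48), Cd2 (10.22), Cd6 (6.59), Txk (8.61), Sh2d1a (6.33), Lef1 (8.05) and Eomes (6.32). The remaining one was Cd3g in WT hosts, at 8.39 on 4T1OE-CTL replicate 2.

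Xcl1 moved one way on both arrays of one host and the other way on both of the other when 4T1OE and 4T1OE-CTL tumours were compared. The interaction was -0.45 (limma adjusted p = 0.999), and all values lay below the negative control median.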

How the results depend on the processing

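The call of Klrk1 in 4T1OE-CTL against parental tumours held in 20 of 20 alternatives (adjusted p from 0.00145 to 0.0295), Nkg7 in 8 of 20, Klrk1 in 4T1OE against parental tumours in 13 of 20 and Fasl in 8 of 19. For 4T1OE against 4T1OE-CTL, 0 genes passed with all 12 arrays, quantile normalization, the array standard deviation as covariate, without dim features (Fasl was not tested there) and without the Nlrx1-/- replicate 1 arrays; 3 passed with array weights, and 0 to 1 with single arrays left out. For 4T1OE-CTL against parental, 1 passed with all 12 arrays and with only the groups compared, and 1 to 5 with single arrays left out (5 without Nlrx1-/- 4T1OE-CTL replicate 2). For 4T1OE against parental, 0 passed with the standard deviation covariate and without the Nlrx1-/- replicate 1 arrays, and 0 to 1 with single arrays left out. Within Nlrx1-/- hosts, 4T1OE against 4T1OE-CTL gave 0 to 1. Features called over the array ran from 4 to 2663 around 1051 for 4T1OE against 4T1OE-CTL, from 126 to 880 around 575 for 4T1OE-CTL against parental, from 83 to 666 around 295 for 4T1OE against parental, and from 0 to 1341 around 265 within Nlrx1-/- hosts. Txk within Nlrx1-/- hosts turned positive, at 0.039 without the Nlrx1-/- replicate 1 arrays, and ranged from -1.72 to 0.17 with single arrays left out. Satb1 ranged from -2.93 to 0.53 there. Both were positive without Nlrx1-/- 4T1OE-CTL replicate 1. The cause was not tested. With the array standard deviation as covariate, the median difference of the 30 genes went from -0.56 to -1.39 for 4T1OE against 4T1OE-CTL within Nlrx1-/- hosts, from -0.55 to -0.85 within WT hosts, from 0.80 to 1.23 for host genotype in 4T1OE-CTL tumours, from 0.43 to 0.16 for 4T1OE against parental and from 0.07 to -0.38 for the interaction, which was -0.01 after quantile normalization and 0.15 without the Nlrx1-/- replicate 1 arrays. The labels give replicate numbers no pairing, although differences between replicates correlated at up to 0.61 between groups. The replicate block gave 1 call in each comparison between lines (1 rather than 2 for 4T1OE-CTL against parental) and 0 elsewhere. Arrays of 2 pools per group limit all of these.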
